A study of Homo sapiens with 2 samples.

Results

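The expressed genes of chromosome 6p22-p24, a stretch of the short arm of chromosome 6, were examined in RNA-Seq counts from A1847 cells, a human epithelial ovarian cancer cell line with high CARM1 expression. Members were the protein-coding genes lying between bases 7541571 and 28367524 of chromosome 6 (GRCh37, the same assembly as hg19) whose counts in parental and KO added up to at least 50 reads. SOX4, JARID2, BMP6, ID4, KDM1B, DSP, GMNN, ALDH5A1 and the histone genes under their current symbols were left out by name. This gave 75 members among the 131 protein-coding genes of the segment, and among 12522 protein-coding genes with at least 50 reads in the whole table. Of the remaining genes of the segment, 27 were left out by name with at least 50 reads, 4 were left out by name with fewer, and 25 others had fewer than 50 reads, 14 of them with 0 reads in both libraries.

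One library came from parental control cells (CARM1 wild type) and the other from CARM1 KO cells, a single CRISPR clone of the same line carrying the CARM1 guide RNA. Both were grown in RPMI 1640 with fetal bovine serum. CARM1 is a protein arginine methyltransferase whose substrates include chromatin remodeling proteins, and the comparison asks which genes differ when it is knocked out. With 1 library per condition there is no replicate, so no difference below has a replicate check and no P values are given. A clone and the population it was grown from, and CARM1 loss itself, cannot be told apart here. Total counts came to 30741953 for the parental library and 32300391 for the KO library. CARM1 had 975 reads in the parental library and 380 in the KO library, 2.63-fold lower (95% interval 2.33 to 2.97). Of the epithelial markers, KRT8, KRT18, EPCAM and PAX8 were present in both libraries and higher in CARM1 KO cells. CDH1 had 3 and 53 reads, and KRT19 had 45 and 0 reads, in parental and CARM1 KO cells respectively, so these markers were near absent in 1 library each. Whether these marker differences bear on the results below was not tested.

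The segment was chosen because a window of genes inside it had a high median fold change in these same libraries. The height of its median is therefore the basis of the choice. A median above 1.5-fold also places most members past that fold, so the counts of members called are, like the median, a description of the values that chose the segment, and nothing is read from their distance to the background. Folds are CARM1 KO over parental after TMM scaling in edgeR, and each has an exact 95% binomial interval, which holds the counting error and nothing else. A member is called higher or lower when the fold passes 1.5 in that direction, with the 3-fold threshold of the study beside it. In bulk RNA a change in how many cells express a gene and a change in RNA per cell cannot be told apart.

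Genes of this segment have varied functions and are grouped by position. It holds the main cluster of replication-dependent histone genes, a family of butyrophilins, which are immunoglobulin-like membrane proteins known for their role in the recognition of tumor cells by gamma delta T cells, and a cluster of zinc-finger genes with SCAN and KRAB domains, which encode DNA-binding proteins that often repress transcription. It also holds E2F3, a transcription factor that drives entry into S phase, and DEK, an abundant chromatin protein of proliferating cells. Beyond its centromeric end lies the major histocompatibility complex.

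Most members were higher in CARM1 KO cells. Of 75 members, 49 were more than 1.5-fold higher, against 27.4% of all expressed protein-coding genes, and 5 were more than 1.5-fold lower, against 23.4%. At more than 3-fold, 21 members were higher, against 11.1% of all genes, and 1 member, MAK, was lower, against 7.44%. The median log2 fold change of the members was 0.96 (quartiles 0.40 and 1.75), a 1.95-fold difference, while that of all expressed protein-coding genes was 0.03 (quartiles -0.54 and 0.66). The spread among members was as wide as elsewhere, with an interquartile range of 1.35 on the log2 scale against 1.21 for all genes. The counting interval lay above 1 for 60 members, below 1 for 9 members and included 1 for 6 members. Since these intervals are narrow for well-counted genes, they do not stand in for replicates.

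**Figure D1:**
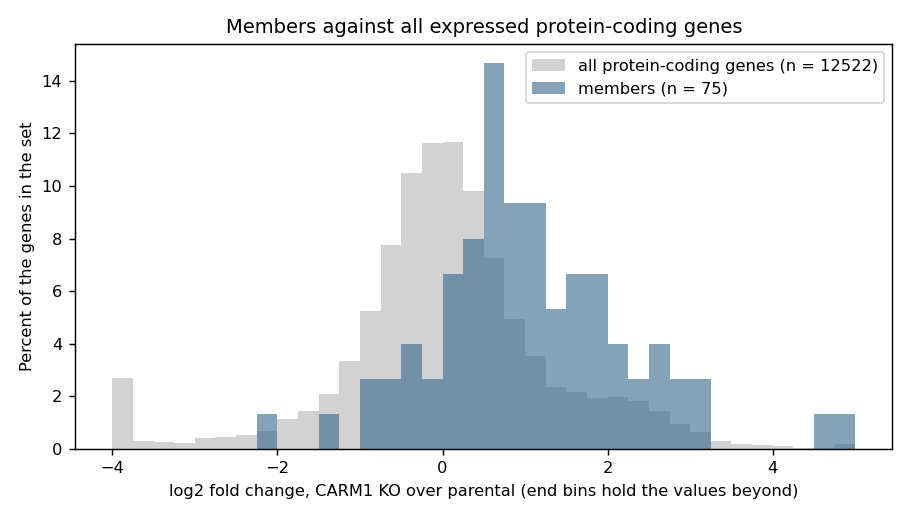
Histogram of log2 fold changes (CARM1 KO over parental, bins of 0.25) as a percent of each set, for the 75 members and all 12522 protein-coding genes with at least 50 reads. The members are displaced to the right, with a median of 0.96 against 0.03, and keep a similar width.

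Together the members held 104551 reads in parental cells, 0.340% of the library (exact 95% binomial interval 0.338% to 0.342%). In CARM1 KO cells they held 188375 reads, 0.583% of the library (0.581% to 0.586%). The ratio of the shares was 1.71. The 10 members with the most reads held 60.9% of the members' parental reads and 60.1% of their KO reads. DEK alone held 21.3% and 26.4%.

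Members past 1.5-fold were found at every read level. Among members with 50 or more but fewer than 500 reads in both libraries together, 13 of 20 were more than 1.5-fold higher, among those with 500 or more but fewer than 2500 reads 17 of 26, and among those with 2500 or more reads 19 of 29. In all expressed protein-coding genes the corresponding shares were 41.5%, 24.9% and 19.9%. The minimum of 50 reads is on the sum of both libraries, for members and all genes alike. Some members of the lowest level, such as EDN1 with 34 and 305 reads and GMPR with 21 and 153, reach it only through their KO reads. The count at that level is therefore a description. The best-counted members had the narrowest spread, with quartiles of 0.55 and 1.16 around a median of 0.74 on the log2 scale. Of these members, 0 of 29 were more than 1.5-fold lower, against 17.9% of all genes at that read level. The poorly counted members had quartiles of 0.14 and 2.19 around a median of 1.31. All expressed protein-coding genes narrowed in the same way, with interquartile ranges of 2.26, 1.16 and 0.88 from the lowest to the highest read level. Across the 75 members, the log2 fold change had a Spearman rho of -0.45 with the parental reads, against -0.27 across the 12522 genes. Both axes share the parental count, so this is a description across genes and not a relation between independent measures. The rho with exonic length was -0.13 and that with position along the segment was 0.02. Of the members on the plus strand, 28 of 43 were more than 1.5-fold higher, and of those on the minus strand 21 of 32.

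**Figure D2:**
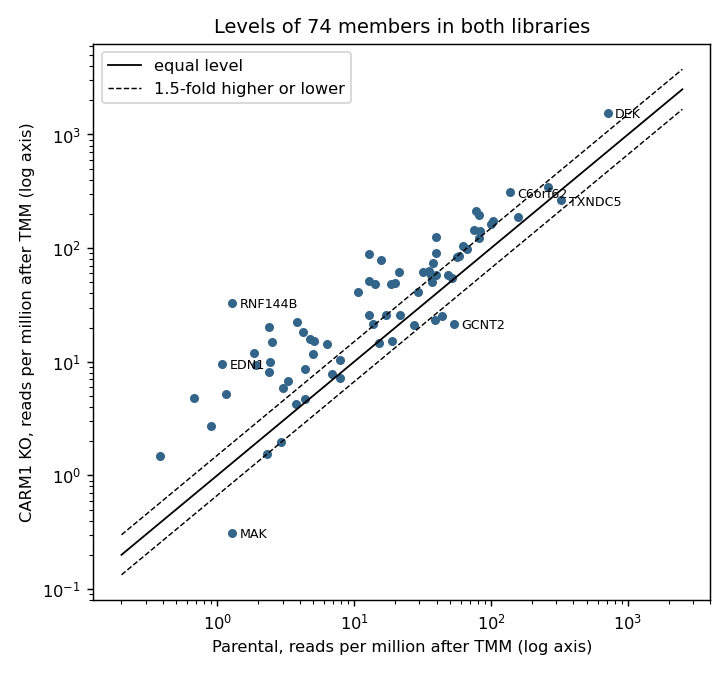
CPM after TMM scaling in parental cells (horizontal, log axis) and CARM1 KO cells (vertical, log axis) for the 74 members with reads in both libraries; each point is 1 gene. Most points lie above the upper dashed line, which marks 1.5-fold, from the lowest levels up to DEK.

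The members with the most reads were DEK, NUP153, TXNDC5, C6orf62, NOL7, TMEM14C, TMEM14B, PAK1IP1, KIF13A and MCUR1. DEK had 22276 reads in the parental library and 49650 in the KO library, a 2.18-fold higher level (95% interval 2.14 to 2.21). Scaled by exonic length and library size (RPKM), DEK had the highest level among the members in both libraries, at 98.7 in parental and 215 in CARM1 KO cells. C6orf62, a gene of little-studied function, had 4317 and 9855 reads, a 2.23-fold higher level. TMEM14C, a mitochondrial membrane protein needed for heme synthesis, had 2410 and 6803 reads, a 2.76-fold higher level, and its neighbor and relative TMEM14B had 2550 and 6219 reads, a 2.38-fold higher level. PAK1IP1, a ribosome assembly factor, KIF13A, a kinesin motor, and MCUR1, a regulator of mitochondrial calcium uptake, were 1.66-fold, 1.63-fold and 1.72-fold higher. NUP153, a nucleoporin of the nuclear basket, had 8064 and 11074 reads, which is 1.34-fold higher and under the 1.5-fold threshold. NOL7, a nucleolar protein, was 1.19-fold higher. TXNDC5, a protein disulfide isomerase of the endoplasmic reticulum, went the other way, with 10172 and 8400 reads, a 1.24-fold lower level. Of these 10 genes, 7 were thus past 1.5-fold in the higher direction and 0 in the lower. Among all expressed protein-coding genes with 2500 or more reads, 19.9% were higher and 17.9% lower.

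The largest difference by the fitted value was that of BLOC1S5-TXNDC5, a readthrough gene that joins neighboring transcripts. It had 0 reads in the parental library and 255 in the KO library, a difference of at least 83.0-fold against a parental floor of 3 reads, which is a one-sided limit. Its exact 95% interval, which is two-sided, begins lower, at 67.0-fold. Of its 75-base windows, 97.6% also occur in transcripts of other genes, mainly TXNDC5 and BLOC1S5. RSEM divides reads between such transcripts, and the division is uncertain here. TXNDC5 shares 60.4% of its windows in the same way. The next highest share was 22.5%, in ZNF322, and 48 of 75 members shared no window. Reads of overlapping genes are a further limit, since the use of strand in counting is not stated: 15 members overlap another member, among them RANBP9 and NOL7, TBC1D7 and PHACTR1, GPLD1 and MRS2, and ACOT13 and C6orf62.

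RNF144B, a ubiquitin ligase that is a known p53 target, stood apart from the rest. It had 40 reads in the parental library and 1054 in the KO library, a 25.7-fold higher level (95% interval 18.8 to 36.2). EDN1, the vasoconstrictor peptide endothelin, had 34 and 305 reads, an 8.76-fold higher level (95% interval 6.14 to 12.9). ATXN1, ataxin, a partner of the repressor Capicua, had 75 and 649 reads, an 8.45-fold higher level (95% interval 6.65 to 10.9). GMPR, guanosine monophosphate reductase, was 7.12-fold higher with 21 and 153 reads. NEDD9, a scaffold protein of focal adhesions, was 6.85-fold higher with 400 and 2804 reads. ZSCAN16, a zinc-finger gene, was 6.45-fold higher, MYLIP, a ubiquitin ligase that targets the LDL receptor, 5.92-fold, TRIM38, a ubiquitin ligase of innate immune signaling, 5.91-fold, and CARMIL1, a regulator of actin capping, 4.96-fold. None of these 9 genes had more than 500 reads in parental cells.

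The upstream sequences of RNF144B and EDN1 are shown because these are the largest differences among members with reads in both libraries. They are the 100 bases before the start of the canonical transcript in GRCh37, 5′ to 3′, at chr6:18387481-18387580 and chr6:12290494-12290593, both on the plus strand, and capitals mark a TATAAA motif, which begins 31 bases before the start in each. DEK, the most abundant member, is shown for contrast, with the 100 bases outside the annotated gene at chr6:18264780-18264879 on the minus strand. Its capitals mark GGGCGG and CCAAT on either strand.
RNF144B: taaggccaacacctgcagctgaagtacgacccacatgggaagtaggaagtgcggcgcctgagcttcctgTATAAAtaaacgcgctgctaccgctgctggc
EDN1: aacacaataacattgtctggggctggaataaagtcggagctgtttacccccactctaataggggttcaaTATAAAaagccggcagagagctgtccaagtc
DEK: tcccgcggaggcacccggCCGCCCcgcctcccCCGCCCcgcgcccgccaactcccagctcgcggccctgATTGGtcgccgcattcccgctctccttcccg

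Among the 74 members whose 250 upstream bases could be read, TATAAA on either strand was present in 4 (EDN1, PHACTR1, RNF144B and BTN3A2), or 5.41%, against 5.02% of 12449 expressed protein-coding genes. CCAAT on either strand was present in 36.5% of members and 34.9% of all genes. GGGCGG on either strand was present in 56.8% of members and 72.7% of all genes, and the median GC content of the members' upstream sequence was 59.4% against 66.4%. These are matches of letters in a fixed window. CCAAT read on the minus strand can share its closing bases with GGGCGG, and each motif was counted on its own.

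Members at the other end of the range were few. MAK, a kinase of germ cells and cilia, had 40 reads in the parental library and 10 in the KO library, a 4.10-fold lower level (95% interval 2.01 to 9.18). It lies just at the minimum of 50 reads and overlaps TMEM14B on the opposite strand. GCNT2, the enzyme that makes the branched I blood group structure on cell surface glycans, had 1678 and 692 reads, a 2.48-fold lower level (95% interval 2.27 to 2.72). FAM8A1, a cofactor of protein degradation at the endoplasmic reticulum, was 1.75-fold lower with 1377 and 807 reads. ACOT13, an acyl-CoA thioesterase of mitochondria, was 1.69-fold lower with 1215 and 738 reads. PRSS16, a serine protease of the thymus, was 1.504-fold lower with 72 and 49 reads, and its interval came down to 1.03-fold. GPLD1, TFAP2A, TXNDC5, HIVEP1 and ZKSCAN3 completed the 10 lowest members and were all within 1.5-fold. TFAP2A, a transcription factor of the early ectoderm, had 852 and 678 reads, a 1.29-fold lower level.

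Sorted by role, the lists of ubiquitin ligases and butyrophilins had every member past 1.5-fold in the higher direction. The lists were drawn up with earlier results of these data known, and their counts are descriptions. For comparison with every list, 65.3% of all members were more than 1.5-fold higher and 6.67% lower. Over all expressed protein-coding genes these shares were 27.4% and 23.4%. At more than 3-fold, 28% of all members and 11.1% of all genes were higher. The lists are short, and differences between them were not tested. All 5 ubiquitin ligases were more than 3-fold higher, with a list median of 2.56 on the log2 scale. Beside RNF144B, MYLIP and TRIM38, RNF182 had 60 and 297 reads, a 4.83-fold higher level, and NHLRC1, malin, which acts in glycogen metabolism, had 74 and 258 reads, a 3.41-fold higher level. Each of the 5 had under 120 reads in parental cells.

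Of the 6 listed butyrophilins, 5 were members and BTN1A1 had 0 and 5 reads. BTN2A2 had 331 reads in the parental library and 1304 in the KO library, a 3.85-fold higher level (95% interval 3.41 to 4.35). BTN2A1 had 1090 and 2020 reads, a 1.81-fold higher level (95% interval 1.68 to 1.95). BTN3A3 had 36 and 165 reads, a 4.48-fold higher level, BTN3A2 had 148 and 508 reads, a 3.35-fold higher level, and BTN3A1 had 103 and 216 reads, a 2.05-fold higher level. The interval of BTN3A1 (1.61 to 2.62) lay below that of BTN3A2 (2.79 to 4.05). These intervals hold counting error only and not the division of reads between copies, so whether the copies were displaced unequally was not tested.

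The BTN3A genes are close copies, which limits how well reads can be divided among them. Of their 75-base transcript windows, 4.0% for BTN3A1, 8.02% for BTN3A2 and 9.23% for BTN3A3 occur in transcripts of another gene. Aligned over 250 bases upstream of the canonical start, BTN3A2 and BTN3A3 were 85.9% identical, and BTN3A1 was 75.6% identical to BTN3A2 and 75.9% identical to BTN3A3. A stretch of 30 bases around a shared CCAAT motif, in capitals, shows how near the copies are. It lies at chr6:26402451-26402480 for BTN3A1, chr6:26365384-26365413 for BTN3A2 and chr6:26440686-26440715 for BTN3A3, all on the plus strand of GRCh37, with the motif beginning 40, 30 and 34 bases before the start.
BTN3A1: atcacctctgagCCAATcaaaaaacttatt
BTN3A2: atcacctctgagCCAATcaaaaaactaatt
BTN3A3: atcacctctgagCCAATcaaaaaactaatt

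Of the 16 listed zinc-finger genes and domesticated transposases, 13 were members, and 10 of these were more than 1.5-fold higher and 0 were lower. The list median was 0.96 on the log2 scale. ZSCAN12, the last member of the segment, had 440 and 1532 reads, a 3.40-fold higher level (95% interval 3.06 to 3.79). ZNF184 had 577 and 1539 reads, a 2.61-fold higher level, and PGBD1, derived from a piggyBac transposase, had 622 and 1586 reads, a 2.49-fold higher level. ZNF391, ZSCAN31 and ZKSCAN3 were the exceptions, and the interval of each included 1. ZKSCAN3, a repressor of autophagy genes, had 245 and 230 reads, and ZSCAN31, which overlaps it, had 118 and 135 reads. Members with much higher and near equal levels therefore lay side by side in this cluster, as ZSCAN12 directly follows ZKSCAN3.

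The list of cell cycle, nuclear and transcription genes had the lowest list median, 0.52. Of its 14 members, 6 were more than 1.5-fold higher and 0 were more than 1.5-fold lower. Beside DEK and ATXN1, SNRNP48, a protein of the minor spliceosome and the first member of the segment, had 1239 and 2884 reads, a 2.27-fold higher level. RANBP9, a scaffold of a ubiquitin ligase complex, was 1.90-fold higher with 2355 and 4586 reads. CDKAL1, a tRNA modifying enzyme that the list holds although its name does not describe it, was 1.67-fold higher with 1941 and 3324 reads. E2F3 had 1154 and 1598 reads, which is 1.35-fold higher (95% interval 1.25 to 1.46) and under the threshold. HIVEP1, a zinc-finger transcription factor, had 591 and 490 reads, a 1.23-fold lower level.

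Among 7 members of the cytoskeleton, adhesion and signaling list, 5 were more than 1.5-fold higher, 4 of them more than 3-fold, and 0 were lower. PHACTR1, an actin-binding regulator of protein phosphatase, had 12 and 47 reads, a 3.83-fold higher level, and CAP2, an actin regulator, had 1613 and 1756 reads, with an interval that included 1. The endoplasmic reticulum, membrane and lipid list had 6 of 10 members more than 1.5-fold higher and 1, GCNT2, lower. ELOVL2, an elongase of polyunsaturated fatty acids, had 1225 and 4030 reads, a 3.21-fold higher level, and SLC35B3, a transporter of the sulfate donor PAPS, had 475 and 462 reads. Of the 6 mitochondrial and metabolic enzymes, 4 were higher and 1, ACOT13, was lower. TPMT, which methylates thiopurine drugs, had 1179 and 2350 reads, a 1.95-fold higher level, and SIRT5, a lysine desuccinylase, was 1.19-fold higher. The 4 listed solute carriers of the SLC17A family, at most at 1 read in either library, were not members. In 15 members outside the lists, 8 were higher and 3, MAK, FAM8A1 and PRSS16, were lower. ADTRP, a lipid hydrolase of endothelial cells, had 76 and 315 reads, a 4.05-fold higher level, and GFOD1, an oxidoreductase-like protein, had 401 and 1642 reads, a 4.0-fold higher level.

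**Figure D3:**
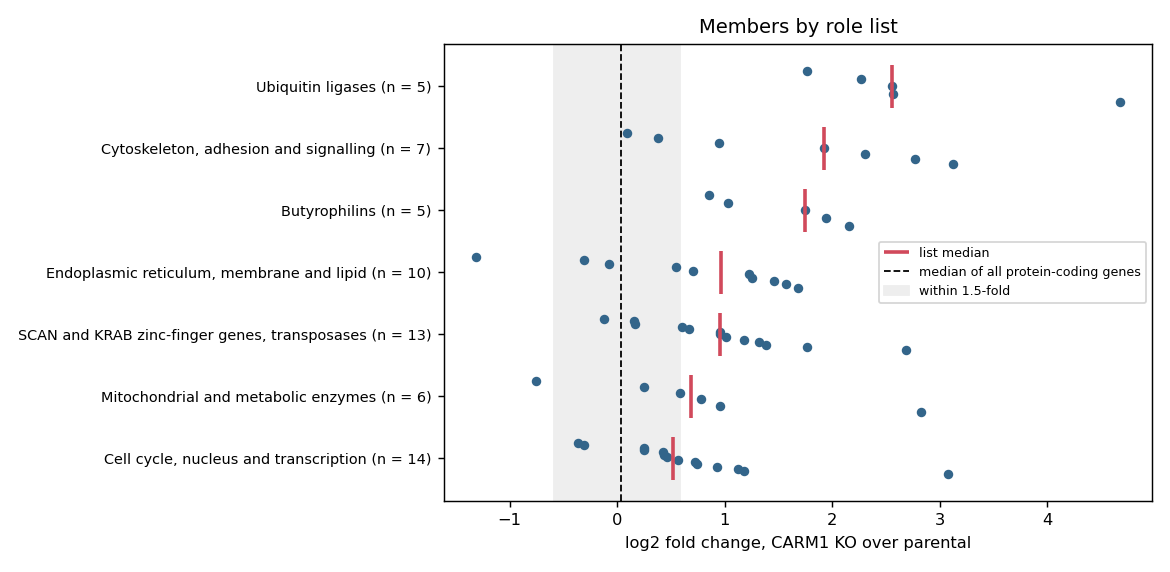
Log2 fold change (CARM1 KO over parental) of each member by role list, with list medians in red, the median of all protein-coding genes as a dashed line and the range within 1.5-fold shaded. All 5 ubiquitin ligases and all 5 butyrophilins lie beyond the shaded range, and the cell cycle, nucleus and transcription list has the lowest median, 0.52.

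The position of the shift along the segment was then examined. A running median over 9 consecutive members was above 0 in all 67 windows and above 1.5-fold in 61 of them. It was lowest at 0.55, centred on TMEM14C, and highest at 2.10, centred on CD83. The members were next divided into pieces by the partition that gives the least summed absolute deviation from piece medians, with at least 8 members a piece. With 1 edge, the best place was between PAK1IP1 and TMEM14C, near base 10723148, with a median log2 fold change of 0.55 over the 9 members before it and 0.98 over the 66 members after it. This removed 2.26% of the summed deviation, and 4 edges removed 12.7%. Every piece of every partition had a median of at least 0.55, against 0.03 for all expressed protein-coding genes. The lowest piece, the 9 members before the single edge, had quartiles of -0.31 and 0.73, with 33.3% more than 1.5-fold higher and 11.1% lower. All genes had quartiles of -0.54 and 0.66, with 27.4% higher and 23.4% lower. These 9 members include BLOC1S5-TXNDC5, whose reads are divided with uncertainty. Whether this piece stood above the level of the rest of the genome was not tested.

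With 2 edges, the piece with the highest median ran from RNF182 to CAP2, from base 13924677 to base 17558011. Its 8 members had a median log2 fold change of 2.19, against 0.69 for the 26 members before it and 0.96 for the 41 members after it. RNF182, CD83, DTNBP1, MYLIP, GMPR, ATXN1 and RBM24 were between 2.97-fold and 8.45-fold higher, and CAP2, the last of the piece, was 1.06-fold higher. CD83, an immunoglobulin-like surface protein of dendritic cells, had 132 and 581 reads, a 4.30-fold higher level. DTNBP1, dysbindin, had 160 and 487 reads, a 2.97-fold higher level. GMPR and RBM24, an RNA-binding protein of muscle, had 21 and 28 reads in parental cells. With 3 edges the piece ran from MCUR1 to RBM24, and all 8 of its members were more than 1.5-fold higher. On the far side, FAM8A1, next to CAP2, was 1.75-fold lower. With 4 edges a similar piece ran from CARMIL1 to BTN3A3, with a median of 1.84 over 8 members, of which 7 were higher. All of these pieces were chosen on the values that describe them, so their medians are descriptions with no test. Each holds 8 members, the fewest allowed, so that minimum bears on where the pieces end. Inside the segment, other settings were compared for the single edge only.

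**Figure D4:**
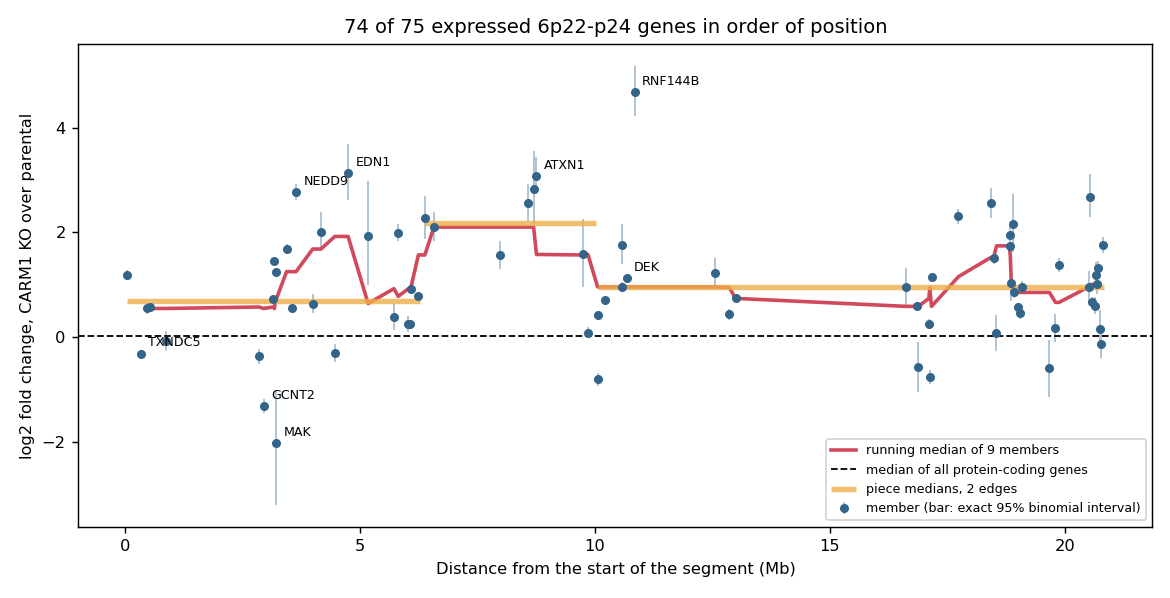
Log2 fold change (CARM1 KO over parental) of 74 members against distance from the start of the segment in Mb, with exact 95% binomial intervals, the running median of 9 members and the medians of the 3 pieces with 2 edges; BLOC1S5-TXNDC5, with 0 parental reads, has no point. The running median stays above the dashed median of all genes throughout, and is highest at 2.10.

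The ends of the segment did not mark the ends of the shift. Just inside the start, SNRNP48 was 2.27-fold higher, and just outside it RIOK1, a kinase of ribosome assembly, had 2414 and 3065 reads, which is 1.24-fold higher, while SSR1, a subunit of the translocon-associated complex, was 1.77-fold higher. RREB1, the next gene outward from SSR1, had 958 and 646 reads, a 1.52-fold lower level. The 25 expressed protein-coding genes between the chromosome end and the segment had a median log2 fold change of 0.48. Of these 25 genes, 10 were more than 1.5-fold higher (40%) and 4 lower (16%). Over all expressed protein-coding genes the shares were 27.4% and 23.4%. Just outside the far end, ZSCAN23 had 59 and 84 reads, which is 1.39-fold higher, and SCAND3 had 325 and 686 reads, a 2.06-fold higher level. On the other threshold of the rule, MAK with 50 reads and PHACTR1 with 59 reads lay just inside the minimum, and STMND1 with 46, C6orf52 with 42 and SYCP2L with 41 lay just outside, with log2 fold changes of 1.99, 0.24 and -1.85.

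Partition of all 653 expressed protein-coding genes of chromosome 6 placed its single best edge outside the segment, 7.07 Mb beyond its end, between FANCE and RPL10A near base 35436178. The 255 genes before this edge had a median log2 fold change of 0.70, with 144 more than 1.5-fold higher (56.5%) and 17 lower (6.67%). The 398 genes after it had a median of 0.01, with 28.6% higher and 24.4% lower. Over all expressed protein-coding genes the shares were 27.4% and 23.4%. Without the members, the 180 remaining genes before the edge had a median of 0.62, with 95 higher (52.8%) and 12 lower (6.67%). The 128 genes between the segment end and the edge, which include the major histocompatibility complex, had a median of 0.61. Of these 128 genes, 66 were higher (51.6%) and 6 lower (4.69%). Close to the edge, the last 20 genes before it had a median of 0.66, with 11 higher and 0 lower, and the first 20 genes after it had a median of -0.33, with 1 higher and 6 lower. FANCE, a Fanconi anemia protein, had 564 and 842 reads, which is 1.46-fold higher. RPL10A, a ribosomal protein, had 7273 and 8255 reads, which is 1.11-fold higher, and FKBP5, a chaperone of steroid receptors, had 3620 and 1060 reads, a 3.50-fold lower level. The place of the edge was chosen on these values, so the contrast across it is a description with no test. The single edge removed 6.22% of the summed deviation along the chromosome, which leaves most of the variation between neighboring genes.

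**Figure D5:**
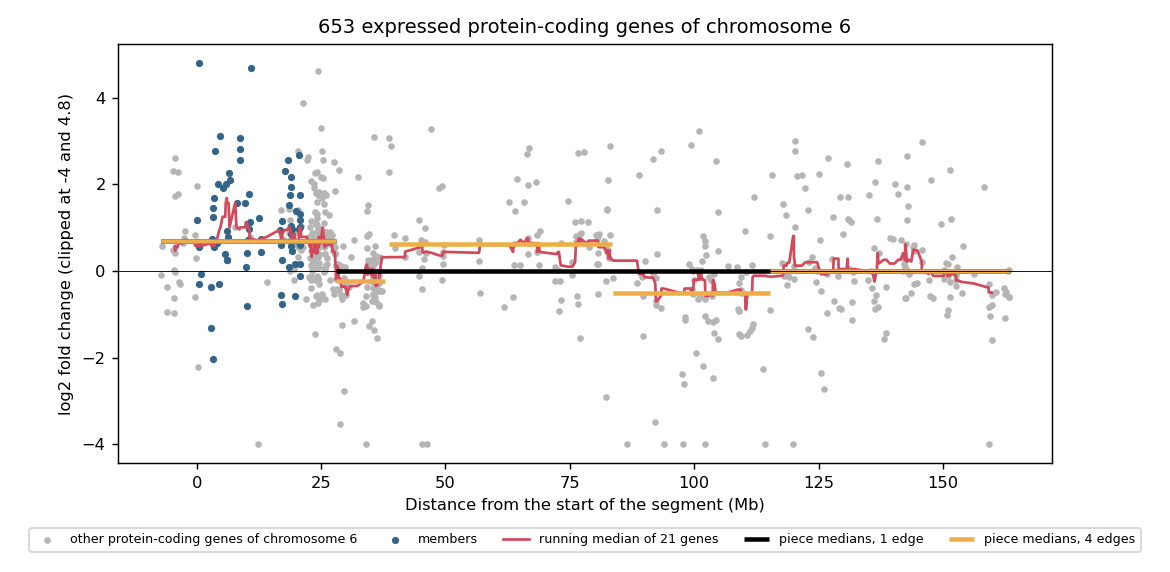
Log2 fold change (clipped at -4 and 4.8) of the 653 expressed protein-coding genes of chromosome 6 against distance from the start of the segment in Mb, members in blue, with the running median of 21 genes and the piece medians for 1 and 4 edges. The first piece, with a median of 0.70, begins before the segment and runs past its end, and the next piece with 4 edges has a median of -0.24.

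Genes of the segment that the rule left out were mostly higher too, with a smaller share more than 3-fold higher. Of 27 such genes with at least 50 reads, 19 were more than 1.5-fold higher and 2 were lower. Over all expressed protein-coding genes the shares were 27.4% and 23.4%. The median log2 fold change of the 27 genes was 0.79. At more than 3-fold, 2 of the 27 were higher and 2 were lower, against 11.1% and 7.44% of all genes. Of the 75 members, 21 were higher and 1 was lower at that threshold. The 19 histone genes among the 27 left-out genes had a median of 0.87 and quartiles of 0.59 and 1.00, with 14 higher and 0 lower. Of the 8 genes left out by name, DSP, ALDH5A1, JARID2, KDM1B and GMNN were 3.88-fold, 2.64-fold, 2.01-fold, 1.73-fold and 1.67-fold higher. ID4, an inhibitor of DNA binding that lies between RNF144B and MBOAT1, had 5184 reads in the parental library and 55 in the KO library, a 96.5-fold lower level (95% interval 74.0 to 128). BMP6 was 4.65-fold lower with 59 and 13 reads. HIST1H4B, a histone gene that the annotation lists under an older symbol, was a member by the letter of the rule, with 665 and 1955 reads, a 2.87-fold higher level. With the left-out genes put back, 68 of 102 genes were more than 1.5-fold higher.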

How the data were processed

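RNA-Seq libraries of parental and CARM1 KO A1847 cells, 1 each, were prepared from total RNA with the ScriptSeq complete Gold kit and sequenced in paired-end mode. The authors aligned reads to hg19 with bowtie2 and estimated reads per Ensembl gene with RSEM (version 1.2.3 per the submitters' processing notes; the paper's methods name another), and deposited whole-number counts per gene without normalization. The Ensembl release and the strand setting are not given in the sources used here, so how well reads of overlapping genes were told apart is not known. By gene span, 15 members overlap another member. Some members also overlap a left-out gene, as HFE lies within H2BC4 and GPLD1 overlaps ALDH5A1.

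Of 57736 identifiers, 55501 were found in GENCODE's GRCh37 annotation. Counts were scaled by TMM in edgeR 4.0.16 under R 4.3.3, and log2 fold changes use a prior count of 0.125. No test was possible with 1 library per group, so no quasi-likelihood test was fitted. Intervals were computed with scipy 1.17.1 and cover counting error only. Edges were found by exact dynamic programming, with 1 to 4 edges. Steps were tested on simulated data. Named genes are CARM1, the 10 highest and 10 lowest members, the 10 with the most reads, those beside edges, the left-out genes and examples from the role lists. Other genes beside the segment were chosen after their values were seen. Members and lists were chosen with earlier results of these data known. Alternatives were other scalings, read minimums, prior count, membership, partition cost and shortest piece.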

Additional observations from a re-analysis of the deposited data

How the results depend on the processing

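Under all alternatives that changed scaling, read minimum, prior count or membership, the median log2 fold change of the members stayed between 0.89 and 1.02, and between 46 and 53 members were more than 1.5-fold higher, apart from 43 of 60 without readthrough and overlapping genes and 68 of 102 with the left-out genes put back. The number more than 1.5-fold lower, 5, became 3 with at least 200 reads, 10 with at least 1 read in either library, and 3 without readthrough and overlapping genes. Each of these alternatives changes which genes are included. The single best edge inside the segment was not stable. It moved from base 10723148 to 10695205 with at least 10 reads or at least 1 read, to 10980992 with a shortest piece of 12 members, and to 17393826 with squared deviation and without readthrough and overlapping genes, and the cause was not tested. The single best edge on chromosome 6 stayed at base 35436178 with each other read minimum, a prior count of 2, squared deviation, a shortest piece of 5 genes, and without HIST1H4B or the readthrough and overlapping genes. Other scalings shift all genes almost alike and so could hardly move an edge here or inside the segment, and putting back left-out genes or a shortest piece of 12 could not move the chromosome 6 edge. With 2 edges on chromosome 6, the second edge moved from MAP3K7 to SFT2D1 with at least 10 reads, the pair became FKBP5 and STK38 with at least 1 read, and it became ASCC3 and CRYBG1 with squared deviation. As a share of protein-coding reads, the members' ratio was 1.68 in place of 1.71. Leaving out HIST1H4B, and extending the partition to the whole chromosome, were chosen after seeing the data. No paired analysis was possible because there was 1 library per condition, and for the same reason no library could be left out. Depth limits members under 100 reads most, namely MAK and PHACTR1, whose intervals are wide.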

Other observations

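Non-coding genes of the same segment were mixed. Of 12 with at least 50 reads, 5 were more than 1.5-fold higher and 3 were lower in CARM1 KO cells, with a median log2 fold change of 0.23. Over all 1653 non-coding genes with at least 50 reads, 28.5% were higher and 35.6% were lower, with a median of -0.17. The butyrophilin pseudogene BTN2A3P had 139 reads in the parental library and 345 in the KO library, a 2.42-fold higher level (95% interval 1.99 to 2.97). HCG11, a long non-coding RNA beside the butyrophilins, had 128 and 326 reads, a 2.49-fold higher level, and the zinc-finger pseudogene ZNF204P had 114 and 275 reads, a 2.36-fold higher level. LNC-LBCS, whose gene overlaps ID4, had 57 and 2 reads, a 29.2-fold lower level that rests on those 2 reads (95% interval of the ratio of CARM1 KO to parental 0.00405 to 0.130). TFAP2A-AS1, antisense to TFAP2A, had 39 and 17 reads, and LINC00518, which follows it, had 75 and 21 reads, a 3.66-fold lower level. TFAP2A itself was 1.29-fold lower, so this group of neighbors had no member that was higher.

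Farther along chromosome 6, partition with 4 edges gave pieces whose medians alternated. For comparison with each piece, 27.4% of all expressed protein-coding genes were more than 1.5-fold higher and 23.4% lower. The 80 genes from RPL10A to SUPT3H had a median log2 fold change of -0.24, with 8 more than 1.5-fold higher (10%) and 20 lower (25%). The share lower in this piece was thus close to that of all genes, and the share higher was below it. The 97 genes from ENPP4 to BACH2 had a median of 0.61, with 51 higher and 10 lower, close to the value of the first piece. The 84 genes from MAP3K7 to HSF2 had a median of -0.50, with 12 higher and 37 lower. Over whole chromosomes, chromosome 6 had a median of 0.31, exceeded among all chromosomes by chromosome 8 alone, with 0.43. The median of chromosome 6 includes the segment, which was chosen for its high values. The 25 genes before the segment had a median of 0.48 and the 526 genes after it a median of 0.16. The pieces of chromosome 6 were found on the same values that describe them, and none was tested. The partition with 4 edges was not repeated under other settings, and with 2 edges the edge at MAP3K7 moved with lower read minimums and with squared deviation.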
